A study of Mus musculus with 6 samples.

Results

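Mitochondrial beta-oxidation and ketogenesis were followed through 8 genes, taken by symbol from the 49212 genes counted in each of 6 mouse liver libraries: Cpt1a, Slc25a20 and Cpt2 of the carnitine shuttle, the acyl-CoA dehydrogenase genes Acadvl, Acadl and Acadm, the trifunctional protein gene Hadha, and the ketone body gene Bdh1. The genes were chosen by function. The libraries hold total RNA from liver, taken at an age of 15 weeks from C57BL/6J mice, 3 labelled placebo and 3 labelled as mice with a pellet of DHT (dihydrotestosterone, an androgen that cannot be turned into oestrogen), used as a model of polycystic ovary syndrome. The labels give no sex, pellet dose, treatment length, diet or time of collection, and do not say that each library is a separate animal, so p-values measure the spread between these samples, which may be technical.

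The 3 libraries labelled DHT carried transcripts of the Y chromosome, 157 ± 12.1 CPM (counts per 1000000 counts of a library) against 1.70 ± 0.60 in placebo (SD, n = 3 each), so sex-linked differences and DHT cannot be told apart in any comparison below. Total counts lay between 41336844 and 60209462 per library. Placebo 3 stood apart from placebo 1 and 2, with a chi-square per degree of freedom over gene counts of 686 and 666 against them, where that between placebo 1 and 2 was 232, and values without it are given where they matter. Mitochondrially encoded genes took 4.96 ± 1.80% of counts in placebo and 7.64 ± 1.07% in DHT. With these and the 20 most counted genes left out of the fit, 0 of 8 members were called. Over all genes 246 were then called, against 250 with them. The 7 hepatocyte markers checked, Alb among them, took 73113 to 87304 CPM in DHT and 96721 to 136041 in placebo when summed, with 0 of 7 called. Of 5 muscle markers, Myh1 and Ckm were at 0 counts in every library, and the list summed to at most 0.0860 CPM. Of 6 adipocyte markers, Lep was at 0 and Adipoq, Retn and Plin1 at no more than 2 counts in any library. The sum of that list, 1010 to 2056 CPM in placebo and 3549 to 4274 in DHT, came almost wholly from Car3, which hepatocytes also express, and 1 of its 6 genes, Cfd, was called. The 6 stellate cell markers summed to 275 to 492 CPM in placebo and 188 to 265 in DHT, with 0 called, and the sums of 5 other lists (cholangiocyte, Kupffer, endothelial, lymphocyte and erythroid) overlapped between the groups. Within these 5 lists 0 genes were called. Krt19, Krt7, Epcam and Nkg7 lay wholly below placebo in DHT, as did 10.9% of all genes. Alas2 lay wholly above, as did 12.7% of all genes. The part of these markers in the results was not tested. The hepatocyte markers differed among themselves, from Ttr, at 6784 CPM in placebo and 6778 in DHT, to Cps1, at a log2 fold change of −1.41. In RNA of whole liver, fewer hepatocytes, less RNA per hepatocyte and lower levels of single genes cannot be told apart.

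Long-chain fatty acids reach the mitochondrial matrix as carnitine esters. CPT1A on the outer membrane makes the ester, the carrier encoded by Slc25a20 exchanges it across the inner membrane, and CPT2 returns the acyl-CoA inside. Each turn of beta-oxidation opens with an acyl-CoA dehydrogenase chosen by chain length and goes on, for long chains, on the trifunctional protein. In liver much of the acetyl-CoA that results becomes ketone bodies, and the dehydrogenase encoded by Bdh1 makes 3-hydroxybutyrate. Fasting and the fatty acid receptor PPARα are known to raise many of these genes.

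All 8 members were found in the RefSeq promoter table of build GRCm38.p6, which gives 250 bases before and 50 from each start site. A window is shown for each of 4 genes: Cpt1a and Cpt2, which catalyse opposite ends of the same shuttle and differed in how their groups overlapped, Acadm, which had the largest fitted difference among the members, and Hadha, which lies head to head with its partner gene Hadhb. Capitals mark AGGTCA or its reverse complement, the half-site bound by nuclear receptors such as PPARα, in Cpt1a and Acadm, GGGCGG, the GC box, in Cpt2, and in Hadha the bases that also lie in the window of Hadhb.
Cpt1a (chr19:3323051-3323350, plus strand): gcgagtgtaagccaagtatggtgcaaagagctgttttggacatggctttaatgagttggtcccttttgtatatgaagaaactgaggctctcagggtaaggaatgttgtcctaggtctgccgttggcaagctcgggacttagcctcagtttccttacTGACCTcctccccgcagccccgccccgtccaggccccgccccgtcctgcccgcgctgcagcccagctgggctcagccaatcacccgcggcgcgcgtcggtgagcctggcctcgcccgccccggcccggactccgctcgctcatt
Cpt2 (chr4:107923540-107923839, minus strand): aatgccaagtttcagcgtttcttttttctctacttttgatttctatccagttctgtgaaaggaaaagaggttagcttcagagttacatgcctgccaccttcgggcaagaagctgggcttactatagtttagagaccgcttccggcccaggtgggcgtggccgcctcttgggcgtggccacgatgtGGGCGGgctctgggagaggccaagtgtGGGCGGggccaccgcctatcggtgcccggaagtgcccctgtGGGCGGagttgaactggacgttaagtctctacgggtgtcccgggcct
Acadm (chr3:153944594-153944893, minus strand): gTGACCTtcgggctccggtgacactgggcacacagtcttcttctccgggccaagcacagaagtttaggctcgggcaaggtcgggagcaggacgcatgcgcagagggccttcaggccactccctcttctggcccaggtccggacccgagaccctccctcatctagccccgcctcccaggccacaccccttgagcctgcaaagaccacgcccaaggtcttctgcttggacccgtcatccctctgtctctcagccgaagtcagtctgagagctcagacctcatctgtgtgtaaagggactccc
Hadha (chr5:30154931-30155230, minus strand): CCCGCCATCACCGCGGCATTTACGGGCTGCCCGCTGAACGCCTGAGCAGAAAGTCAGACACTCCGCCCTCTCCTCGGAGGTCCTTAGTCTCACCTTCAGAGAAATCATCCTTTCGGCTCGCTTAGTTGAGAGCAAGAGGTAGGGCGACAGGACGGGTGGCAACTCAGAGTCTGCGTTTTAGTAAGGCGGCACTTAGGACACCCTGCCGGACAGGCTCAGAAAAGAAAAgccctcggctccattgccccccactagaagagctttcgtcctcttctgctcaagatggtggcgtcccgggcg

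AGGTCA was searched on both strands and found in the windows of 3 of 8 members, Cpt1a at 94 bases before the start site, Acadm at 249 and Acadvl at 87. It stood in 16.3% of all 32851 windows. The longer motif to which PPARα binds with its partner, searched as AGGNCA, any 1 base and AGGNCA again, which overlaps the short motif where N is T, was in the window of 0 of 8 members and in 0.381% of all windows. GGGCGG was found for 6 of 8 members and in 35.7% of all windows, with 3 matches in Cpt2 and 4 in Acadl. Members are counted here as genes and the background as windows. Bdh1 has a window at each of its start sites 31422297 and 31428753, and its GGGCGG match lies only in the latter. The windows of Hadha and Hadhb, on opposite strands of chromosome 5, share 228 bases. Each match is a description of these letters only.

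None of the 8 genes passed the test between DHT and placebo, although the fitted log2 fold change was above 0 in all 8. The largest differences were those of Acadm, Cpt2 and Bdh1, at 1.61, 1.59 and 1.52 times the placebo level, and in these 3 every DHT library lay above every placebo library. Cpt1a, whose enzyme is the rate-limiting step of the pathway, and Acadl differed least, at 1.13 times each. By edgeR's quasi-likelihood test with Benjamini-Hochberg adjustment, 0 of 8 members were called at an adjusted p under 0.05, where 1.65% of all 15126 genes tested were called in either direction. Adjusted p-values of the members ran from 0.268 to 0.878. At an unadjusted p under 0.05, 2 of 8 were higher, Acadm and Cpt2, against a background of 7.4%, and 0 were lower. DESeq2 and limma voom also called 0 of 8, where they called 7.03% and 4.67% of all genes, and over 18 alternatives the smallest adjusted p of any member was 0.0642, for Acadm without placebo 3. The median log2 fold change was 0.40 over the members and −0.02 over all genes tested, of which 48.1% had a positive value. DHT lay wholly above placebo in 3 of 8 members and in 12.7% of all genes.

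**Figure D1:**
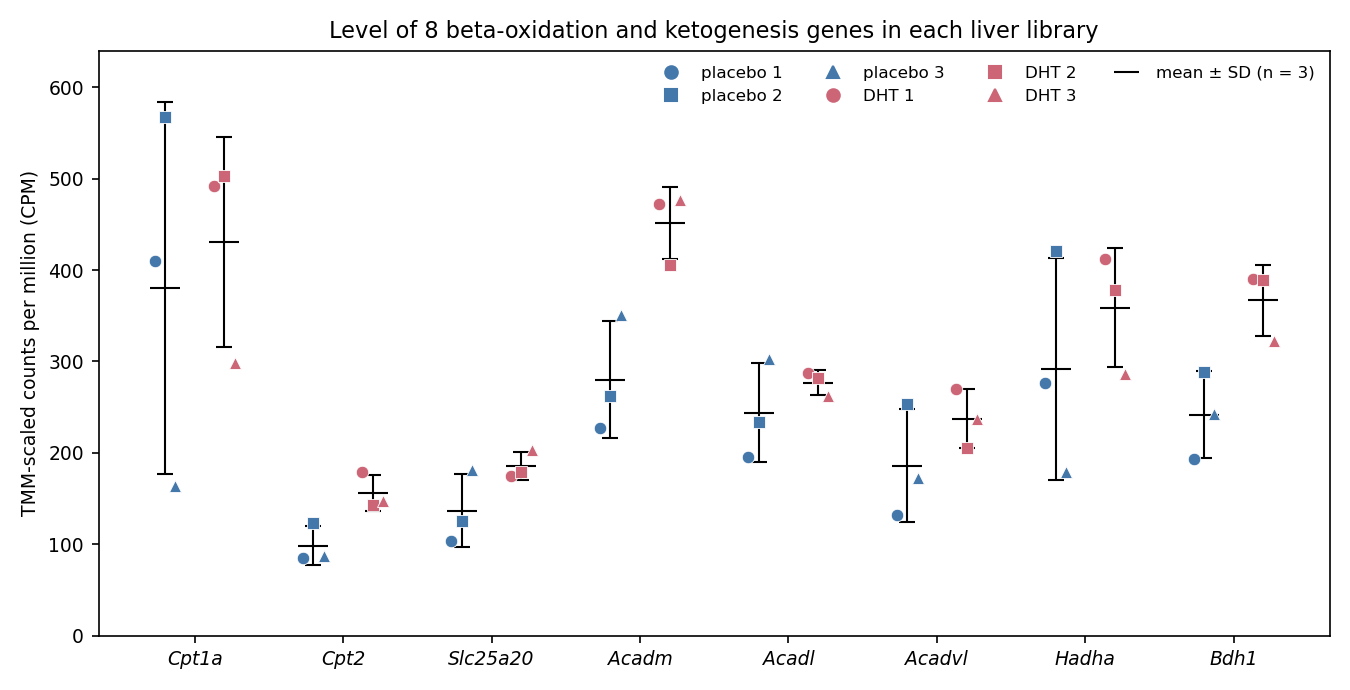
Level of each member in each library, in CPM scaled by TMM (trimmed mean of M values), with the mean and SD of 3 libraries per group. Groups are separate in Cpt2, Acadm and Bdh1 and overlap in the other 5 genes, and placebo 3 is lowest in Cpt1a (163 CPM) and Hadha (179 CPM) but highest of the placebo libraries in Slc25a20, Acadm and Acadl.

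In the carnitine shuttle, the outer and inner transferases were distributed differently over the libraries. Cpt1a (chromosome 19, 3323301 to 3385732, on GRCm38 as are all positions given) had 409.9, 568 and 163 CPM in placebo 1, 2 and 3 and 492, 503 and 298 CPM in DHT 1, 2 and 3. Placebo 2 was the highest library and placebo 3 the lowest, so that the DHT values lay inside the placebo range. The group means were 380.3 ± 204 and 431 ± 115 CPM (SD, n = 3 each), and the log2 fold change was 0.18 ± 0.45 (± SE, adjusted p = 0.878), with a 95% interval of −0.86 to 1.23. Without placebo 3 it was −0.18, so the sign of this difference rests on that library.

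Slc25a20, the carnitine-acylcarnitine carrier gene (chromosome 9, 108662088 to 108684641), had 104, 126 and 181 CPM in placebo and 174, 179 and 203 CPM in DHT. Placebo 3 lay among the DHT libraries, and placebo 1 and 2 lay below them. The log2 fold change was 0.44 ± 0.28 (adjusted p = 0.476). Cpt2 (chromosome 4, 107903981 to 107923610) had 85.1, 124 and 86.9 CPM in placebo and 179, 143 and 147 CPM in DHT. The groups were separate, by 19.0 CPM between placebo 2 and DHT 2. The means were 98.5 ± 21.7 and 156 ± 19.8 CPM, and the log2 fold change was 0.67 ± 0.26 (adjusted p = 0.269), with a 95% interval of 0.07 to 1.26 before adjustment for the number of genes.

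The other isoforms of the outer transferase were close to absent. Cpt1b, the muscle form, held 2, 0 and 0 counts in placebo and 5, 19 and 9 in DHT, was too low to be tested, and shares 81.4% of its exon length with Chkb. Cpt1c, the brain form, had 0.217 ± 0.0846 CPM in placebo and 0.221 ± 0.0406 in DHT.

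Among the 3 acyl-CoA dehydrogenase genes, the groups were separate in the medium-chain gene and overlapped in the other two. Acadm (chromosome 3, 153922357 to 153944632) had 227, 262 and 351 CPM in placebo and 472, 406 and 477 CPM in DHT. The groups did not overlap, and the lowest DHT library exceeded the highest placebo library by 54.8 CPM. The means were 280.2 ± 63.9 and 452 ± 39.7 CPM, the log2 difference was 0.69 ± 0.27 (adjusted p = 0.268), and its 95% interval was 0.07 to 1.31 before adjustment. Acadl, the long-chain gene (chromosome 1, 66830839 to 66863277), had 196, 234 and 303 CPM in placebo and 287, 282 and 262 CPM in DHT. Here placebo 3 was the highest of all 6 libraries, and the log2 fold change was 0.18 ± 0.26 (adjusted p = 0.766).

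Acadvl, whose product acts on very long chains at the inner membrane (chromosome 11, 70010183 to 70015411), had 132, 253 and 172 CPM in placebo and 269.7, 206 and 237 CPM in DHT. Placebo 2 lay above DHT 2 and DHT 3. The log2 fold change was 0.36 ± 0.30 (adjusted p = 0.596). Exons of Acadvl overlap those of Dvl2 on the opposite strand over 42.9% of their length. The strand setting of the counting is not given in the sources used here. Whether reads from the shared part were counted for Acadvl, for Dvl2 or left out is therefore not known. This also limits the level of Acadvl per kilobase given below.

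Hadha encodes the subunit of the trifunctional protein that carries the hydratase and the 3-hydroxyacyl-CoA dehydrogenase (chromosome 5, 30118304 to 30155162). It had 276, 421 and 179 CPM in placebo and 412, 379 and 286 CPM in DHT. Placebo 2 was again the highest library and placebo 3 the lowest, as in Cpt1a, and the log2 fold change was 0.30 ± 0.35 (adjusted p = 0.711). Without placebo 3 the log2 fold change of Hadha was 0.04 (adjusted p = 0.949), so most of this difference rests on that library. Hadhb, the thiolase subunit gene that starts next to it on the other strand (chromosome 5, 30155248 to 30184593), had 115, 157 and 147 CPM in placebo and 197, 179 and 183 CPM in DHT. For Hadhb the groups were separate, with a log2 fold change of 0.41 ± 0.24 (adjusted p = 0.433). The windows of the pair share the bases in capitals above. The Hadha window is set on a RefSeq start site at 30154980, while the counted gene reaches to 30155162. Part of the shared bases therefore lie inside the counted Hadha gene. Placebo 3 was lowest of the placebo libraries in Hadha and in the middle of them in Hadhb.

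Bdh1, whose product converts acetoacetate to 3-hydroxybutyrate (chromosome 16, 31422280 to 31458901), had 193, 289 and 243 CPM in placebo and 389.7, 389 and 322 CPM in DHT. Each DHT library lay above each placebo library. The means were 242 ± 47.6 and 367 ± 38.7 CPM, and the log2 fold change was 0.60 ± 0.26 (adjusted p = 0.315), with a 95% interval of -0.0017 to 1.21 before adjustment. Exons of Gm15743 on the opposite strand cover 14.03% of the exon length of Bdh1.

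**Figure D2:**
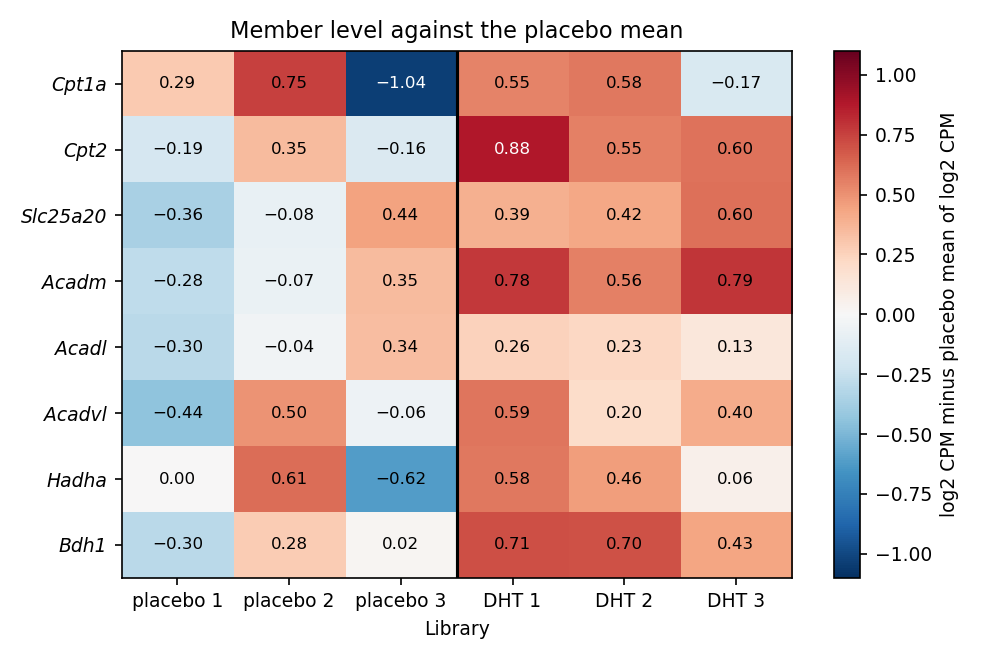
Log2 CPM of each member in each library minus the mean of the 3 placebo libraries, red above and blue below that mean. Acadm, Cpt2, Bdh1, Slc25a20, Acadl, Acadvl and Hadha are above 0 in all 3 DHT libraries, and Cpt1a is at −0.17 in DHT 3 and −1.04 in placebo 3.

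The members varied more among placebo than among DHT libraries. The coefficient of variation was larger in placebo for 8 of 8 members, with a range of 19.7 to 53.6% in placebo and 4.74 to 26.7% in DHT, and the same was true of 82.6% of all genes tested. The placebo spread took different forms. Placebo 3 was the highest of the placebo libraries in Slc25a20, Acadm and Acadl and the lowest in Cpt1a and Hadha. The first 3 had the lowest GC shares among the members, at 50.1, 48.0 and 45.15% of their longest coding transcript, while the other 5 had 51.3 to 53.7%. In placebo 3, genes below 50% GC had a median log2 level of 0.08 against the placebo mean, and genes from 50% GC had −0.21. Slc25a20, at 50.1%, belongs to the second set. With trends on gene length and GC content removed from each library, 0 of 8 members were called. The log2 fold change was then 0.33 for Acadl (0.18 before) and 0.32 for Slc25a20 (0.44 before). For Acadm it was 0.63 (0.69 before), for Cpt1a 0.16 (0.18 before) and for Hadha 0.18 (0.30 before). Length and GC were removed together, so these values do not give the share of either. The part of GC content in the pattern of placebo 3 was not tested.

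Ratios of members within a library do not depend on how libraries are scaled. Of 28 pairs of members, the ratio did not overlap between the groups in 3, which is a smaller share than the 25.5% over all pairs of tested genes with counts in every library. The 3 are given as values only and were picked after these were seen. The log2 ratio of Acadm to Acadl counts was 0.21, 0.17 and 0.21 in placebo and 0.72, 0.53 and 0.86 in DHT, a difference of 0.50 between means of 0.20 ± 0.03 and 0.70 ± 0.17. Placebo 3 did not stand apart in this ratio. The log2 ratio of Slc25a20 to Acadl was 0.27 higher in DHT. The ratio of Slc25a20 to Acadm differed by −0.24. An exact two-sided permutation test over the samples gave p = 0.1 for each of the 3, and an adjusted p of 0.933 over the 28 pairs. Since 0.1 is the smallest value that 3 against 3 libraries allow, no pair could have passed, whatever its values. The test therefore cannot decide whether these ratios differ between the groups.

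Per kilobase of exon, which allows genes to be compared with each other, the order of the members depended on the length used. With the deposited length over all exons of a gene, Acadl came first in both groups, with 122 ± 27.2 CPM per kilobase in placebo and 138 ± 6.56 in DHT. In placebo the order then ran Cpt1a (88.4 ± 47.4), Acadm (71.6 ± 16.3), Acadvl (69.2 ± 23.0), Bdh1 (63.6 ± 12.5), Cpt2 (41.2 ± 9.06), Hadha (33.4 ± 13.9) and Slc25a20 (28.3 ± 8.22), and the ranges of each neighbouring pair overlapped. In DHT it ran Acadm (115 ± 10.1), Cpt1a (100.2 ± 26.7), Bdh1 (96.5 ± 10.2), Acadvl (88.5 ± 11.9), Cpt2 (65.4 ± 8.28), Hadha (41.1 ± 7.49) and Slc25a20 (38.3 ± 3.15). The DHT ranges were clear of the next gene only for Acadl, Acadvl and Cpt2. The length of the longest coding transcript was tried after seeing the data, and it is much shorter for some genes (4017 bases against 8.73 kilobases for Hadha). Acadm then came first, with 137 ± 31.2 CPM per kilobase in placebo and 221 ± 19.4 in DHT, ahead of Acadl with 127 ± 28.5 and 145 ± 6.86. The ranges of these 2 genes overlapped in placebo and were clear in DHT. Slc25a20 was no longer last, at 76.8 ± 22.3 and 104 ± 8.57, and Cpt2 was, at 41.5 ± 9.13 and 65.9 ± 8.35.

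Summed over the 8 members, levels were 1623, 2276 and 1679 CPM in placebo and 2676, 2485 and 2233 CPM in DHT, with placebo 2 just above DHT 3. Without composition scaling the sums were 1567, 2099 and 1547 against 2783, 2687 and 2415 CPM and did not overlap, and 5 of 8 members were then separate between the groups, as were 21.1% of all genes in the same direction. The 5 genes whose log2 level followed the mean member profile most closely over the 6 libraries, among 7188 candidates with a mean of at least 10 CPM, were Usp14, Sntb1, Carhsp1, Dhdh and Retsat, with Pearson's r between 0.992 and 0.997. These values share the libraries and their depth, and are a description. Among the members themselves, r with this profile ran from 0.479 to 0.982, and each member is part of the profile, which raises its r.

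Outside the 8 members, edgeR called 1 of 20 tested genes in the list of other mitochondrial oxidation genes, Crat, and 0 lower. DESeq2, limma voom and edgeR with the replicate block (libraries paired by number) each called 2, Crat and Etfdh. Over all genes, in either direction, the shares called were 1.65% with edgeR, 7.03% with DESeq2, 4.67% with limma voom and 10.7% with the block. Crat, the carnitine acetyltransferase gene that buffers mitochondrial acetyl-CoA (chromosome 2), had 29.5, 30.0 and 13.6 CPM in placebo and 102, 113 and 67.5 CPM in DHT. All DHT libraries lay above all placebo libraries, and the gene rose 3.85-fold (log2 fold change 1.94 ± 0.37, adjusted p = 0.0469). The call was lost when any library other than placebo 3 was left out, with adjusted p-values up to 0.173, and at a minimum of 1 CPM in 3 libraries (0.0504). Etfdh, the oxidoreductase gene that passes electrons from the dehydrogenases to ubiquinone, differed by 0.89 ± 0.27 on the log2 scale (adjusted p = 0.166 with edgeR, 0.0379 with the block, 0.0422 with DESeq2, 0.0487 with limma voom, and up to 0.531 over the alternatives). Etfb, a subunit gene of the electron carrier itself, went the other way at −0.80 ± 0.34 (adjusted p = 0.3), with 58.3% of its exon length shared with neighbours. The median over this list was 0.26.

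In the list of other ketone body genes, 0 of 6 were called by edgeR, DESeq2 or limma voom, and the median log2 fold change was −0.26. In edgeR 1 was higher and 1 lower at an unadjusted p under 0.05, against background shares of 7.4% and 8.52%. With the replicate block the same 2 genes, Slc16a1 and Bdh2, were called, where 10.7% of all genes were. Slc16a1, which encodes the monocarboxylate transporter MCT1 that carries ketone bodies across the plasma membrane, had 42.2, 41.0 and 40.0 CPM in placebo and 71.2, 94.0 and 56.7 CPM in DHT, a log2 difference of 0.85 ± 0.26 (adjusted p = 0.166; 0.0379 with the block, up to 0.547 elsewhere). Bdh2, the cytosolic relative of Bdh1, had 23.4, 18.1 and 34.0 CPM in placebo and 12.2, 11.3 and 15.9 CPM in DHT, the opposite direction to Bdh1 (log2 fold change −0.94 ± 0.30, adjusted p = 0.192; 0.0192 with the block, up to 0.543 elsewhere). Oxct1, the gene of the transferase by which other tissues use ketone bodies, had 9.34, 4.12 and 5.92 CPM in placebo and 2.87, 3.50 and 4.54 CPM in DHT. DHT 3 lay above placebo 2, and the log2 fold change was −0.83 ± 0.36 (adjusted p = 0.318).

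**Figure D3:**
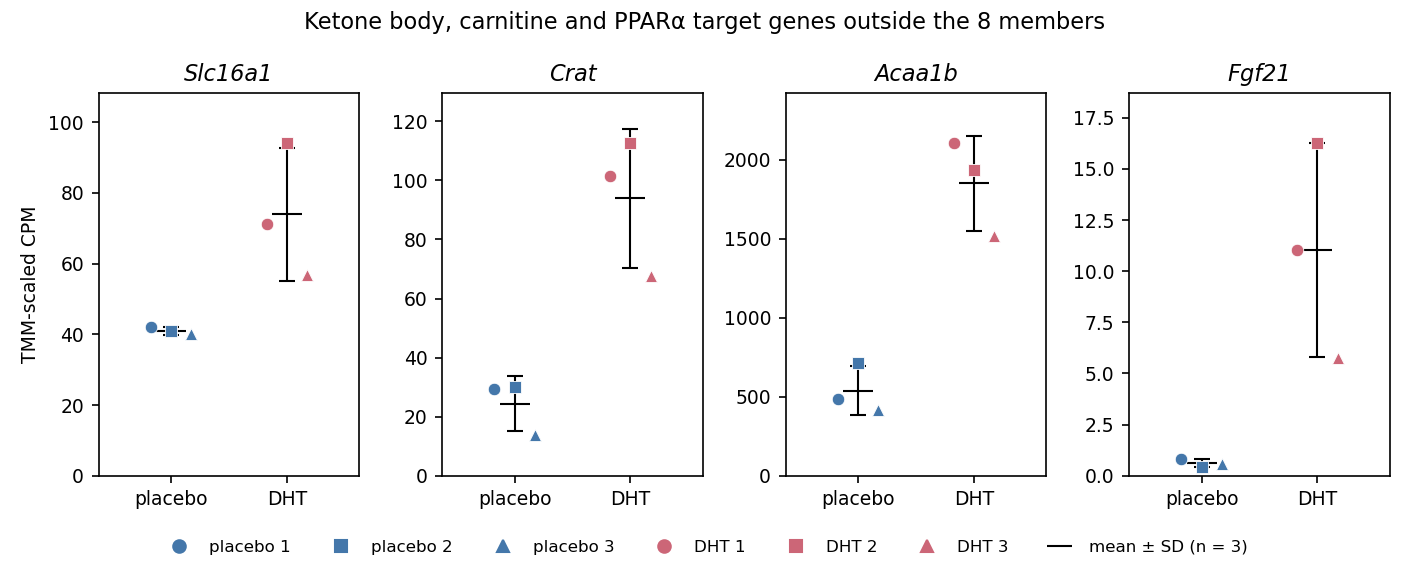
Level of Slc16a1, Crat, Acaa1b and Fgf21 in each library, in TMM-scaled CPM from 0, with the mean and SD of 3 libraries per group. In all 4 genes the DHT libraries lie above the placebo libraries, while Slc16a1 missed the threshold (adjusted p = 0.166).

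Of 16 regulators, 0 were called by edgeR, DESeq2 or limma voom and 0 had an unadjusted p under 0.05 in edgeR, and the median log2 fold change was −0.20. Ppara itself had 69.0 ± 43.2 CPM in placebo and 62.6 ± 10.2 CPM in DHT. The 3 regulators with the smallest p were the coactivator gene Ppargc1a (−0.77 ± 0.35, adjusted p = 0.335), Lpin1, a phosphatidate phosphatase gene (−1.29 ± 0.63, adjusted p = 0.356, and between 0.000966, with the replicate block, and 0.682 over the alternatives), and the orphan receptor gene Esrra (−0.59 ± 0.30, adjusted p = 0.37). Without placebo 3, Ppargc1a had an adjusted p of 0.0341, the smallest of its range over the alternatives, which reached 0.661.

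Of 16 other PPARα target genes, 2 rose by edgeR's test, Fgf21 and Acaa1b, and 0 fell, with 0.952% of all genes called higher. DESeq2 called 5 higher, adding Pdk4, Plin2 and Vnn1, against 3.3% of all genes, and limma voom called 4 higher, adding Plin2 and Vnn1, against 2.43%. The replicate block gave 6 higher, against 5.44%. The median log2 fold change over the list was 0.73. Fgf21, the hormone gene induced by fasting, had 0.808, 0.414 and 0.596 CPM in placebo and 11.05, 16.2 and 5.77 in DHT (log2 fold change 4.18 ± 0.48, adjusted p = 0.00708), and it stayed called in all 18 alternatives. Acaa1b, a peroxisomal thiolase gene, had 488, 710.3 and 418 CPM in placebo and 2102, 1932 and 1516 in DHT (1.78 ± 0.31, adjusted p = 0.0332), and the call was lost when any library other than placebo 3 was left out (adjusted p up to 0.153). Plin2, a lipid droplet coat gene, differed by 1.69 ± 0.33 on the log2 scale (adjusted p = 0.0516, 0.000128 with the block and 0.0258 without placebo 3, from 0.000105 to 0.191 over all alternatives). Other genes of the list lay near 0, Ehhadh at −0.05 ± 0.29 and Cyp4a10 at 0.06 ± 0.46. With the replicate block, 11 of 58 genes over the 4 lists were called, 9 higher and 2 lower, against 3 without it, while the share called over all genes went from 1.65% to 10.7%.

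**Figure D4:**
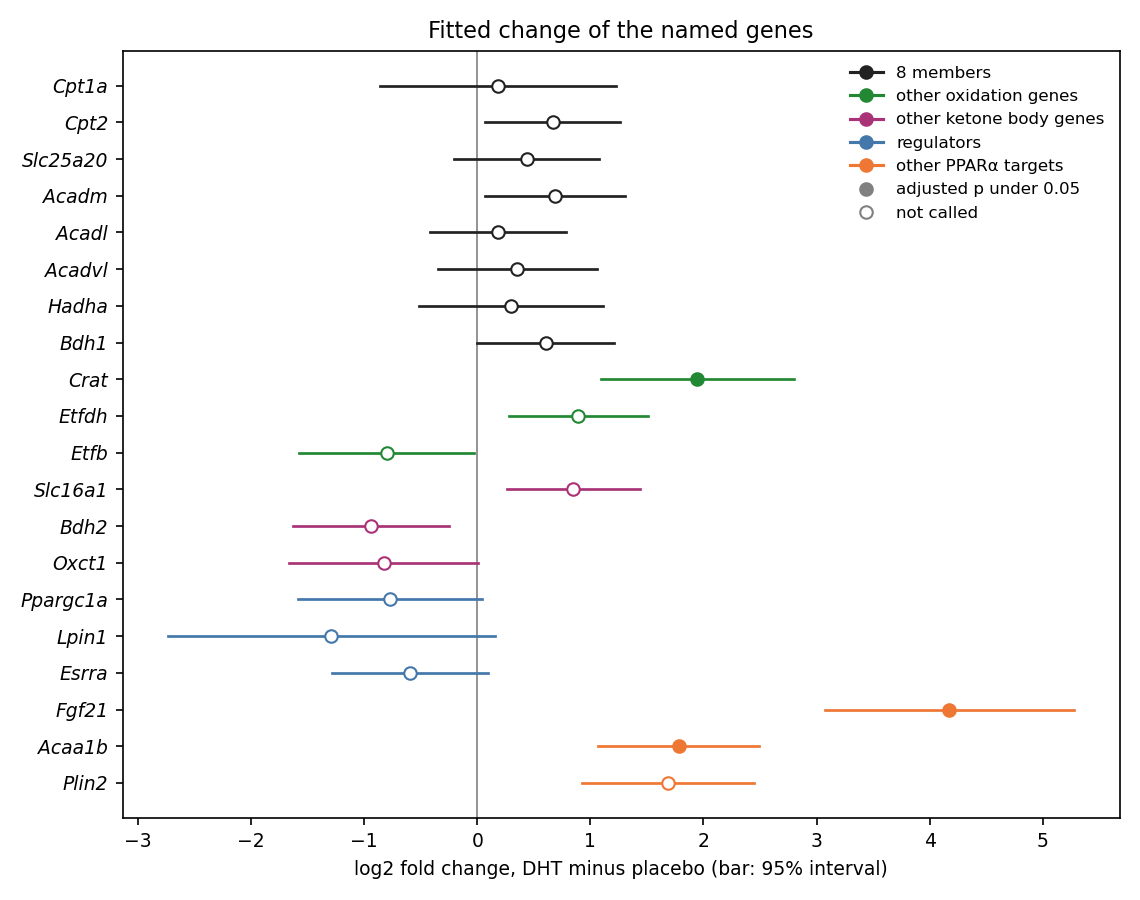
Fitted log2 fold change (DHT minus placebo) of the 8 members and 12 other named genes, with 95% intervals and colours by list. Filled points passed an adjusted p of 0.05, which holds for Crat, Fgf21 and Acaa1b and for 0 of 8 members, whose points lie between 0.18 and 0.69.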

How the data were processed

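The authors deposited 1 table of raw gene counts per library, with exon coordinates, strand and length per gene, per the file headers. The submitters' processing notes name GRCm38, STAR 2.5.2b, Trimmomatic 0.36, Subread 1.5.2 and featureCounts. Whether reads were counted by strand, or more than once, is not given in the sources used here. Each table has 49212 rows, 0 of them without a gene.

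The members and lists were chosen with earlier results of these data known, and some genes of the lists are not reported here. DHT was compared with placebo in R 4.3.3 with edgeR 4.0.16 on the whole table (filterByExpr, TMM, robust quasi-likelihood test, no covariates), with Benjamini-Hochberg adjustment over 15126 genes. The scripts were tested on simulated data. CPM are TMM-scaled, except the Y chromosome values and those given as unscaled. The SE is the log2 fold change divided by the square root of F, and intervals use the fit's degrees of freedom. 3 counts in 1 library are 0.0498 to 0.0726 CPM. No 2 libraries agreed within sampling noise (smallest chi-square per degree of freedom 104.1, DHT 1 against DHT 2). Named genes are the 8 members, the called genes of each list and the 3 of each list with the smallest p. Hadhb, Cpt1b, Cpt1c, Ppara, Ehhadh and Cyp4a10 were named after their values were seen.

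Libraries with the same number in their titles deviated together from their group means (r = 0.307, 0.198 and 0.641 over genes for numbers 1, 2 and 3). These 3 values are not independent, since the deviations within a group cancel out. Placebo 2 correlated more with DHT 1 (0.488), and placebo 1 slightly more with DHT 2 (0.319), than with their own numbers. The labels name no shared litter or day, so a fit that pairs libraries by number was run as an alternative only. The paired fit is the replicate block given with the results. Alternatives were DESeq2 1.42.0, limma 3.58.1 voom with quality weights, other scalings and filters, and leaving out each library. Removing length and GC trends (GC known for 97.3% of genes), and leaving out both libraries numbered 3, were added after seeing the data.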

Additional observations from a re-analysis of the deposited data

How the results depend on the processing

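The count of called members was 0 in all 18 alternatives. The member log2 fold changes kept their sign in all of them, except that of Cpt1a without placebo 3 (−0.18), which reached from there to 0.58 when 1 library was left out. Some came close to 0 without 1 placebo library. Hadha was at 0.04 without placebo 3, and Acadl was at 0.02 without placebo 1. Of all genes, 250 were called, 144 higher and 106 lower, and library size alone gave 207 higher and 89 lower, with a median over all genes of 0.17 in place of −0.02 (log2). The count was 521 without a low-count filter, 1621 with the replicate block, 1062 with DESeq2, 707 with limma voom, 448 without both libraries numbered 3, 486 with length and GC trends removed and 1365 with that and the block. Of the 4 lists together, 3 genes were called, and in the same order 6, 11, 7, 6, 5, 5 and 9, and 5 with library size alone. Leaving out 1 library gave 84 to 862 calls over all genes (862 when placebo 3 was left out, 94 and 105 for placebo 1 and 2, and 95, 84 and 165 for DHT 1, 2 and 3) and 1 to 7 in the lists, 7 without placebo 3 and 1 without each other library. The cause was not tested. Among the named genes as defined above, the replicate block changed only the calls of Etfdh, Slc16a1, Bdh2, Lpin1 and Plin2. In the lists it also called Hsd17b4, Pdk4 and Vnn1, which edgeR without the block did not. With 3 libraries a group, the 95% interval of Cpt1a spanned 0.549-fold to 2.34-fold of placebo.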
